A study of Bos taurus with 9 samples.

Results

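RIG-I-like receptors are cytosolic RNA helicases that recognise dsRNA and other RNA of viral type. The 9 genes described here are the receptors RIGI (gene ID 504760), IFIH1 or MDA5 (535490) and DHX58 or LGP2 (508378), the adaptor MAVS (618508), the kinase TBK1 (533141), the transcription factor IRF3 (516979) and the interferon-stimulated genes ISG15 (281871), MX1 (280872) and OAS1Y (654488). They were taken by symbol from the 17852 genes of the deposited table. The set was chosen by pathway and by measured values of these same libraries, above all the high read counts of DHX58 with microplastics, so the values of the 9 genes are given as a description and without a test.

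In the textbook pathway, worked out mainly in human and mouse cells, RIGI and MDA5 bind RNA through their helicase and C-terminal domains. They then pass the signal through CARD domains to MAVS on the outer mitochondrial membrane. MAVS leads to activation of TBK1, which phosphorylates IRF3, and IRF3 enters the nucleus and turns on interferon genes and some antiviral genes directly. LGP2 binds dsRNA but lacks CARD domains, and it is known as a modulator that can help MDA5 and restrain RIGI. Mouse oocytes are known for a weak interferon response to dsRNA.

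The libraries were made from total RNA of bovine oocytes at metaphase II, where the mammalian egg pauses until fertilisation. There were 3 libraries of oocytes given both microplastics and taurine, a sulfur-containing amino acid derivative, 3 of oocytes given microplastics alone, and 3 of control oocytes. The labels give no breed, no animal or culture of origin, and neither the kind nor the dose of the plastic or of taurine. They call the oocytes female germ cells. Because nothing says that libraries came from separate animals or cultures, p-values cover the spread among these libraries alone, and that spread could be technical. Libraries held 21.17 to 22.74 M estimated reads.

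The libraries differed in ways that bear on the values below. Levels are given as CPM, reads scaled to a common library total and corrected with TMM factors, which bring the bulk of genes to a common level. These factors were 0.841 to 0.958 with microplastics plus taurine, 1.214 to 1.253 with microplastics and 0.835 to 0.972 in control. The 3 microplastics libraries each correlated best, across genes, with a library of their own group (0.981 to 0.982). All libraries with microplastics plus taurine, and controls 2 and 3, correlated best with a library of the other of these groups (0.976 to 0.978). For control 2 and microplastics plus taurine libraries 1 and 2 the best value in their own group was close (0.974 to 0.975), while it was 0.963 for microplastics plus taurine library 3 and 0.965 for control 3. Oocyte marker genes were present in every library. They summed to 88580 to 116200 TMM-scaled CPM with microplastics plus taurine, 42600 to 51110 CPM with microplastics and 96310 to 125600 CPM in control. BTG4 made up a large part of these sums, at mean levels of 52880, 19790 and 59410 CPM in the same order of groups. In the edgeR test given below, 8 of the 15 oocyte markers were called lower with microplastics than in control. The 2 called higher were NLRP5 and ZAR1. Of all tested genes, 14.7% were called lower and 9.68% higher in that comparison. Cumulus and granulosa markers summed to 517 to 569 CPM, 420 to 519 CPM and 512 to 613 CPM in the same order of groups. STAR made up a large part of these sums, at mean levels of 281, 309 and 283 CPM. In bulk RNA, fewer cells of a type and less RNA per cell cannot be told apart.

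DHX58 was the member that stood highest with microplastics. It had 20.0, 21.3 and 20.2 CPM in the libraries with microplastics plus taurine, 58.6, 50.8 and 54.4 CPM with microplastics, and 14.3, 13.2 and 14.6 CPM in control. No library of any group overlapped with another group: the microplastics libraries were all highest, those with taurine lay in between, and control was lowest. These values rest on 370 to 441 estimated reads per library with microplastics plus taurine, 1402 to 1554 with microplastics and 250 to 306 in control.

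The fitted DHX58 level was 3.89-fold higher with microplastics than in control, a log2 difference of 1.96 ± 0.17 (SE). With microplastics plus taurine it was 0.376 of the level with microplastics alone, a log2 difference of -1.41 ± 0.17. Against control, the level with microplastics plus taurine was 1.46-fold, a log2 difference of 0.55 ± 0.17. The authors' TPM values, which are per transcript length, were 9.44, 9.86 and 8.46 for DHX58 with microplastics plus taurine, 38.5, 31.7 and 36.8 with microplastics, and 5.59, 5.38 and 7.12 in control. They order the groups in the same way. The RefSeq table of the ARS-UCD2.0 assembly lists no gene that overlaps DHX58.

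RIGI is the receptor best known for RNA with a 5' triphosphate end. It overlapped between all groups in TMM-scaled CPM, while in TPM only its microplastics libraries stood apart. It had 11.4, 10.9 and 11.5 CPM with microplastics plus taurine, 8.98, 10.7 and 17.7 CPM with microplastics, and 10.6, 11.3 and 10.3 CPM in control. Microplastics library 3 was the highest of the 9. The log2 difference was 0.22 ± 0.26 between microplastics and control and -0.15 ± 0.26 between microplastics plus taurine and microplastics. Without microplastics 3 these were -0.10 and 0.17, so the sign of both rests on that library. In the authors' TPM, which carry no TMM correction, RIGI stood at 3.31, 3.11 and 2.96 with microplastics plus taurine, 3.63, 4.13 and 7.38 with microplastics, and 2.56, 2.83 and 3.09 in control. All microplastics libraries were highest there, with a difference from control of 0.61 on the log2(TPM + 1) scale, and of 0.71 in log2 CPM scaled by library totals alone. RIGI counts were not whole in any library, and the RefSeq table places the gene across TOPORS, so the authors' counting may have split reads between overlapping genes.

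IFIH1, whose product MDA5 recognises long dsRNA, was close to undetected. It had 0, 0 and 4 reads with microplastics plus taurine, 0 in each library with microplastics, and 4, 3 and 6 reads in control. The limit that a count of 0 allows, 3 reads in a library, corresponds to 0.132 to 0.142 CPM before TMM scaling. All control libraries had more reads than all microplastics libraries, but counts this near the limit leave that order uncertain. IFIH1 was the only one of the 9 genes that did not pass the filter on low counts, so 8 entered the fit. Fitted without that filter, it had a log2 difference of -5.34 between microplastics and control. It was not called in any comparison.

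**Figure D1:**
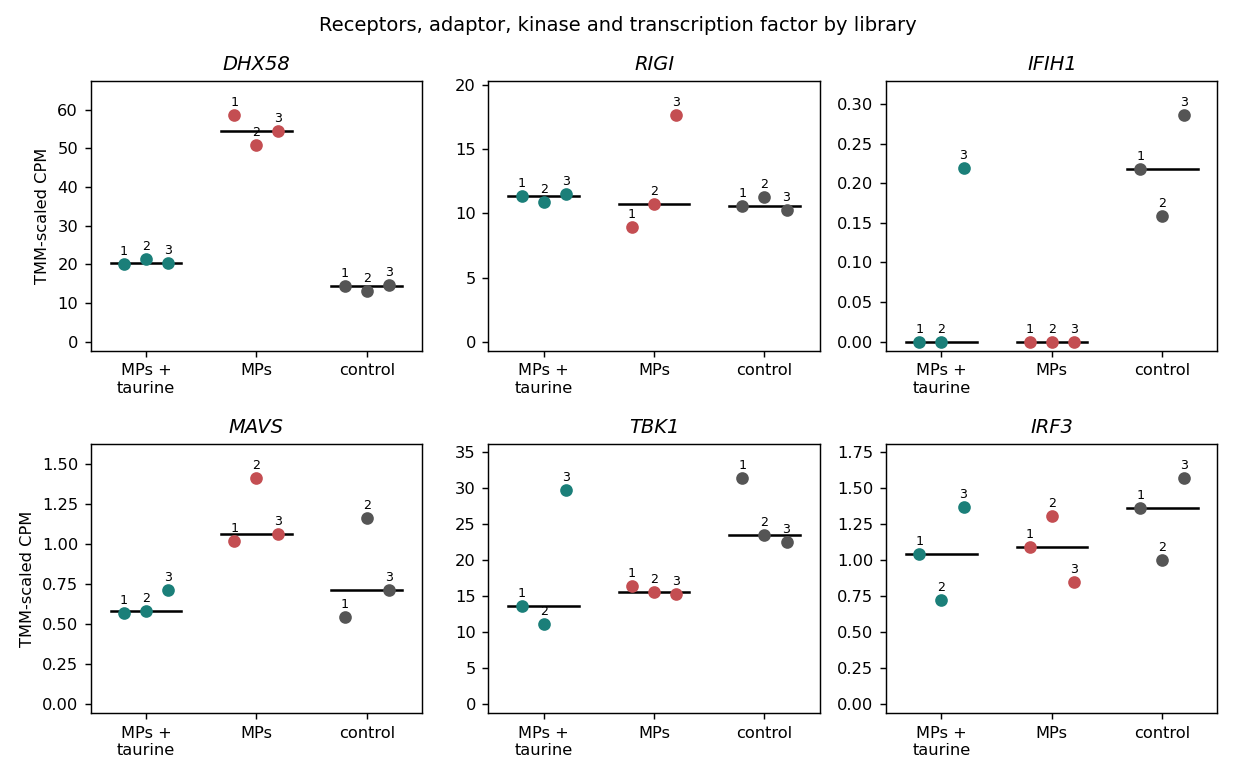
TMM-scaled CPM of DHX58, RIGI, MAVS, TBK1, IRF3 and IFIH1 in each library, with groups along the horizontal axis, dots numbered by library and a line at the group median. DHX58 lies between 50.8 and 58.6 with microplastics, above every other library, while RIGI overlaps between all groups.

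MAVS, the mitochondrial adaptor, was measured at a low level. It had 0.570, 0.579 and 0.711 CPM with microplastics plus taurine, 1.02, 1.41 and 1.06 CPM with microplastics, and 0.545, 1.16 and 0.715 CPM in control, which is 10 to 39 reads a library. The microplastics libraries all lay above those with microplastics plus taurine and overlapped with control. In TPM they were above both, with 0.24, 0.24 and 0.26 with microplastics plus taurine, 0.59, 0.78 and 0.64 with microplastics, and 0.19, 0.42 and 0.31 in control. The log2 difference was 0.53 ± 0.44 between microplastics and control and -0.91 ± 0.44 between microplastics plus taurine and microplastics. Scaled by library totals alone, these were 1.01 and -1.34.

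TBK1, the kinase that acts on IRF3, had 13.6, 11.2 and 29.7 CPM with microplastics plus taurine, 16.3, 15.6 and 15.3 CPM with microplastics, and 31.4, 23.5 and 22.5 CPM in control. In this scaling all microplastics libraries were below all control libraries. Of those with taurine, libraries 1 and 2 were below every microplastics library, and library 3 was within the control range. The log2 difference was -0.71 ± 0.32 between microplastics and control, and it was 0.20 ± 0.32 between microplastics plus taurine and microplastics. Without microplastics plus taurine library 3 the second of these was -0.34, and the difference between microplastics plus taurine and control was -1.06, against -0.51 ± 0.32 with it. The layout rests on the TMM scaling: in TPM, microplastics (8.97, 8.15 and 8.66) overlapped with control (10.3, 8.01 and 9.16). The difference between them was -0.22 in log2 CPM scaled by library totals alone and -0.08 on the log2(TPM + 1) scale.

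IRF3, the transcription factor at the end of this chain, had 1.05, 0.724 and 1.37 CPM with microplastics plus taurine, 1.09, 1.30 and 0.851 CPM with microplastics, and 1.36, 1.00 and 1.57 CPM in control. The groups overlapped in every comparison. The log2 difference was -0.28 ± 0.41 between microplastics and control and -0.05 ± 0.41 between microplastics plus taurine and microplastics.

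The 3 interferon-stimulated genes were lower in all microplastics libraries than in all control libraries, and high in 1 library with taurine. ISG15, a ubiquitin-like protein that is attached to other proteins, had 2.23, 1.93 and 19.2 CPM with microplastics plus taurine, 1.09, 2.36 and 0.106 CPM with microplastics, and 9.97, 7.40 and 8.29 CPM in control. The reads behind these values were 47, 40 and 351 with microplastics plus taurine, 29, 65 and 3 with microplastics, and 183, 140 and 174 in control. Libraries 1 and 2 with taurine stood near the microplastics libraries, and library 3 stood above all control libraries.

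MX1, a dynamin-like GTPase with antiviral activity, had 0.190, 0.483 and 4.10 CPM with microplastics plus taurine, 0.226, 0.544 and 0.0354 CPM with microplastics, and 1.69, 1.27 and 1.62 CPM in control. OAS1Y, a bovine member of the 2'-5' oligoadenylate synthetase family, had 0.190, 0.386 and 8.37 CPM with microplastics plus taurine, 0.340, 0.145 and 0 CPM with microplastics, and 1.20, 0.899 and 0.667 CPM in control. Both genes thus had the same layout as ISG15: control above microplastics, with microplastics plus taurine library 3 highest of all. OAS1Y overlaps OAS2 and neighbours the near copy OAS1X in the RefSeq table, and its counts were not whole in 3 libraries, so its values are uncertain.

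The log2 difference between microplastics and control was -2.85 ± 0.96 for ISG15, -2.49 ± 1.01 for MX1 and -2.48 ± 1.34 for OAS1Y. It was 2.71 ± 0.96, 2.53 ± 1.01 and 4.17 ± 1.32 between microplastics plus taurine and microplastics for the same genes. Without microplastics plus taurine library 3 these were 0.81, 0.32 and 0.83, and the differences between microplastics plus taurine and control became -2.04, -2.17 and -1.66. With that library, the differences from control were -0.14 ± 0.88 for ISG15, 0.05 ± 0.91 for MX1 and 1.68 ± 1.14 for OAS1Y. The higher mean of these 3 genes with taurine therefore came mostly from 1 of its 3 libraries.

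Within the group with taurine, library 3 stood at 9.23 times the mean of libraries 1 and 2 for ISG15, 12.2 times for MX1 and 29.1 times for OAS1Y. The same ratio was 0.981 for DHX58, 1.03 for RIGI, 1.24 for MAVS, 2.40 for TBK1 and 1.55 for IRF3. Over 13201 tested genes its median was 0.989, and 0.97% of genes were above 5. Receptor transcripts DHX58 and RIGI therefore lay together in the 3 libraries in which the interferon-stimulated members differed widely.

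Other interferon-stimulated genes, named here after their values were seen, had the same high library. IFI6 had 0.713, 0.483 and 14.8 CPM with microplastics plus taurine, 0.415, 2.46 and 0.177 CPM with microplastics, and 3.70, 2.38 and 3.77 CPM in control. IFI27 had 0.428, 0.820 and 12.9 CPM, 0.340, 1.20 and 0.0354 CPM, and 0.926, 4.44 and 1.62 CPM in the same order of groups. IFITM2, of a family that acts on virus entry and has close copies, had 3.61, 0.531 and 23.2 CPM with microplastics plus taurine, 0.604, 2.46 and 0 CPM with microplastics, and 5.50, 5.07 and 7.58 CPM in control. None of the 3 was called in any comparison. Microplastics plus taurine library 3 was the highest of all libraries for 9 of the 22 tested effector genes beyond the members. Microplastics 3 was the lowest for 6 of them. How often these libraries were highest or lowest over all tested genes was not counted, so nothing particular to the effectors is read from this.

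A few markers of other cells were also high in that library, while most of the stroma and of the cumulus and granulosa lists were not. LUM, a stromal proteoglycan gene, stood at 40.4 CPM in microplastics plus taurine library 3 and at no more than 3.30 CPM in any other library. The other stroma markers together summed to 27.3 CPM there, against up to 29.8 CPM in other libraries. DCN was at 0 there, but at no more than 0.436 CPM in any library. INHA, a granulosa gene, stood at 9.19 CPM there and at no more than 1.22 CPM elsewhere, while STAR, at 223 CPM, was at its lowest of all 9 libraries. TNFAIP6, of the same list, stood at 33.3 CPM there, against 1.05 and 1.16 CPM in libraries 1 and 2 and 66.1 CPM in control 2. KRT18, of the epithelial list, stood at 5.25 CPM there, 0 to 0.0354 CPM with microplastics and 1.53 to 3.59 CPM in control. KRT19 of that list was at its lowest there, at 1.53 CPM. INHA and KRT18 thus had the layout of ISG15: control above microplastics, and microplastics plus taurine library 3 highest of all. FSHR was at 0 there, but at no more than 0.0965 CPM in any library. Zeros of DCN and FSHR therefore say little about library 3. Library 3 was the highest of all libraries for 2 of 8 stroma markers, 5 of 16 cumulus and granulosa markers and 3 of 6 epithelial markers. It was the highest for 0 of 9 leukocyte, 0 of 4 endothelial and 0 of 3 erythroid markers. LUM, INHA, TNFAIP6, KRT18 and KRT19 were picked after their values were seen. The summed stroma list ranged over 17.4 to 67.7 CPM with microplastics plus taurine, 26.1 to 29.8 CPM with microplastics and 11.3 to 23.6 CPM in control. The summed leukocyte list ranged over 8.86 to 13.4 CPM, 14.5 to 15.3 CPM and 12.1 to 19.6 CPM in the same order of groups, and PTPRC, which marks nearly all leukocytes, was at 0 to 0.189 CPM. Epithelial markers summed to 278 to 383 CPM with microplastics plus taurine, 183 to 235 CPM with microplastics and 275 to 363 CPM in control. Endothelial markers summed to 28.4 to 45.8, 35.3 to 54.9 and 26.9 to 49.0 CPM, and erythroid markers to 17.3 to 23.9, 10.6 to 17.7 and 31.1 to 67.2 CPM, in the same order of groups. Of the 13 tested cumulus and granulosa markers, 5 fell and 0 rose with microplastics against control, and 4 rose and 0 fell with microplastics plus taurine against microplastics. Among all tested genes, 14.7% fell and 9.68% rose in the first of these comparisons, and 10.1% rose and 4.13% fell in the second. The part of the marker genes in the results for the interferon-stimulated genes was not tested.

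**Figure D2:**
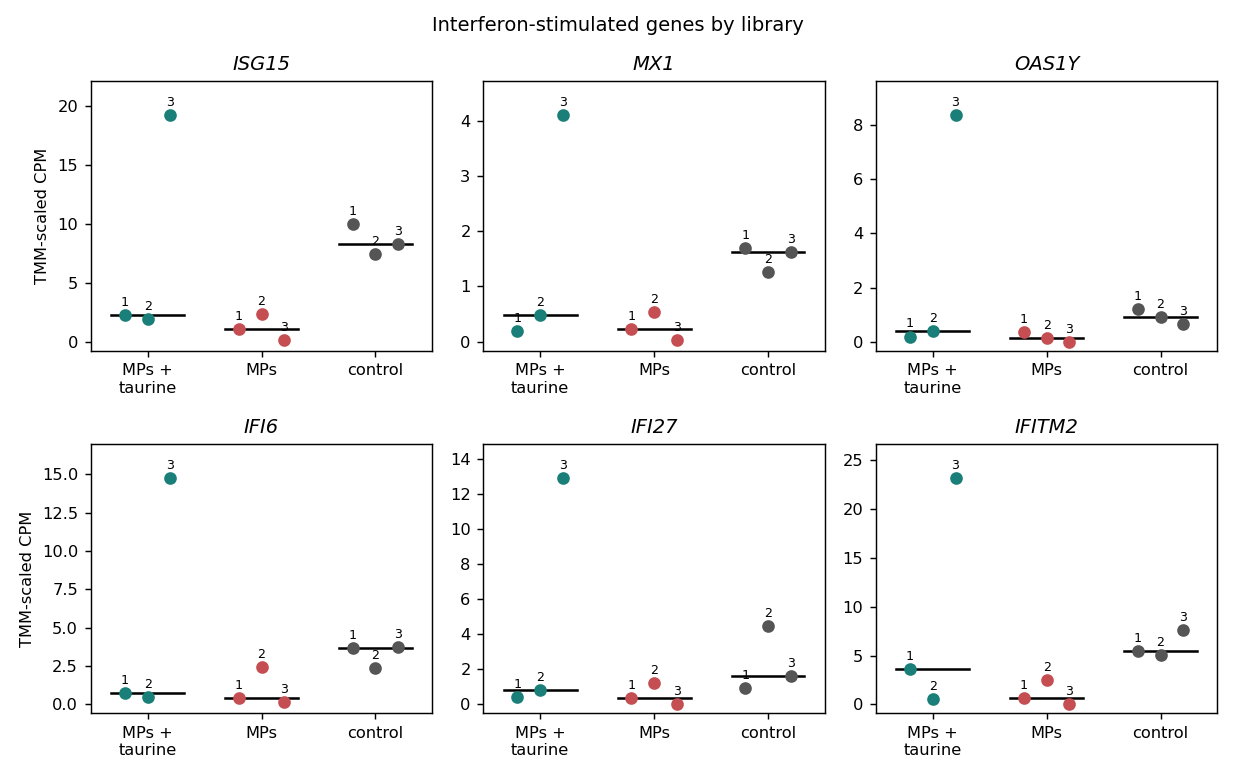
TMM-scaled CPM of ISG15, MX1, OAS1Y, IFI6, IFI27 and IFITM2 in each library, with groups along the horizontal axis, dots numbered by library and a line at the group median. Library 3 with microplastics plus taurine is the highest of all 9 in every panel, at 19.2 for ISG15 and 8.37 for OAS1Y.

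Close relatives of these members had few reads. MX2, which lies next to MX1 and encodes a related GTPase, had 0 to 8 reads a library. OAS1X had 0 to 5 reads, OAS1Z 0 to 6 and OAS2 1 to 11. None of these 4 genes passed the filter on low counts, and none was called in any comparison when fitted without it.

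In edgeR's quasi-likelihood test with Benjamini-Hochberg adjustment over all 13206 tested genes, 24.3% of genes were called between microplastics and control at an adjusted p under 0.05. Those called higher with microplastics were 9.68% of all tested genes and those called lower 14.7%. Of the 8 tested members, DHX58 was called there as higher. An unadjusted p under 0.05 was found for 4 members and for 5038 of the 13206 tested genes. In the comparison of microplastics plus taurine with microplastics 14.2% of genes were called, 10.1% as higher and 4.13% as lower. DHX58 was the only member called, as lower. Here 4 members had an unadjusted p under 0.05, as did 3832 of the 13206 tested genes. In that of microplastics plus taurine with control 0.00757% of genes, or 1 gene, were called. No member was called there by edgeR, DESeq2 or limma. In edgeR, 1 member was at an unadjusted p under 0.05, as were 752 of the 13206 tested genes. Since the members were chosen with such results known, nothing is read from these counts.

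Without microplastics plus taurine library 3, which enters the shared estimate of spread, 5 members were called between microplastics and control: DHX58 higher, and TBK1, ISG15, MX1 and OAS1Y lower. In that fit 27.7% of all tested genes were called, against 24.3% with all libraries. Those last 4 genes were also the members whose microplastics libraries all lay below control, a layout in TMM-scaled CPM that 22.5% of all tested genes had. DHX58 was the 1 member with all microplastics libraries above control, as 22.4% of tested genes were. All libraries with microplastics plus taurine were below all microplastics libraries for DHX58 and MAVS, as for 17.4% of tested genes, and above them for 0 members, against 18.7% of genes. DHX58 was the 1 member with all libraries with microplastics plus taurine above control, as 4.58% of tested genes were, and 0 members had them all below control, against 4.57% of genes.

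**Figure D3:**
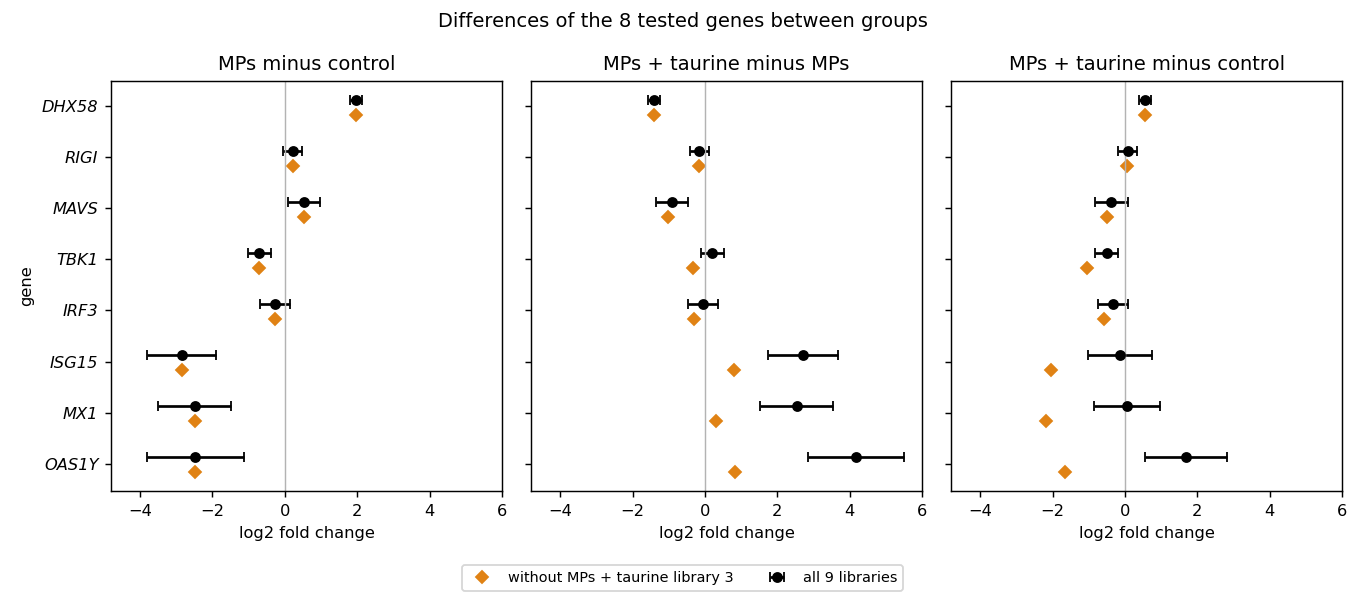
Log2 differences with SE bars of the 8 tested members in the 3 comparisons, with diamonds for the fit without microplastics plus taurine library 3. DHX58 is at 1.96 between microplastics and control and -1.41 between microplastics plus taurine and microplastics, with its diamonds close by, while the diamonds of ISG15, MX1 and OAS1Y move to 0.81, 0.32 and 0.83 in the second comparison.

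Per transcript length, the order of the members changed between groups. These are mean levels in the authors' TPM, with SD over 3 libraries. With microplastics plus taurine, ISG15 was first at 20.2 ± 24.9 TPM, then DHX58 at 9.25 ± 0.72 TPM and TBK1 at 6.69 ± 3.24 TPM, and neighbours among these 3 overlapped. RIGI followed at 3.13 ± 0.18 TPM, below every TBK1 value. OAS1Y, IRF3 and MX1 came next at 1.96, 0.797 and 0.697 TPM with overlapping libraries, RIGI overlapping with OAS1Y and MX1 with MAVS, which stood at 0.247 TPM. IFIH1 was last at 0.0200 TPM.

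With microplastics, DHX58 was first at 35.7 ± 3.52 TPM, with no overlap with TBK1 at 8.59 ± 0.41 TPM. RIGI at 5.05 ± 2.04 TPM and ISG15 at 4.61 ± 4.30 TPM overlapped, as did ISG15 and IRF3 at 1.21 TPM. MAVS followed at 0.670 TPM, and MX1 at 0.173 TPM and OAS1Y at 0.163 TPM overlapped at the lower end. IFIH1 was at 0, as OAS1Y was in microplastics 3.

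In control, ISG15 at 22.3 ± 3.47 TPM, TBK1 at 9.15 ± 1.14 TPM, DHX58 at 6.03 ± 0.95 TPM and RIGI at 2.83 ± 0.27 TPM stood apart from one another. IRF3 at 0.977 TPM, MX1 at 0.677 TPM and OAS1Y at 0.600 TPM overlapped as neighbours. MAVS was at 0.307 TPM and IFIH1 at 0.0633 TPM. DHX58 was thus the most abundant transcript of the set with microplastics and stood below ISG15 and TBK1 in control.

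Transcript length moved with the differences of all genes. In the shortest of 5 length classes, with a median of 754 nt, the median log2 difference between microplastics and control was -0.35, and in the longest, with a median of 5079 nt, it was 0.26. The medians of these classes were 0.27 and -0.25 between microplastics plus taurine and microplastics. ISG15, at 373 nt, was in the shortest class, IRF3 and OAS1Y were in the second, DHX58 and MX1 in the middle class and RIGI, MAVS and TBK1 in the fourth. DHX58 and MX1 have lengths of 2275 and 2208 nt, in a class with a median of 0.08, and stood at 1.96 and -2.49.

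With a smooth trend on length removed in each library, the log2 difference between microplastics and control was 1.86 for DHX58, -2.37 for ISG15, -2.58 for MX1 and -2.44 for OAS1Y. It was -0.87 for TBK1, 0.39 for MAVS, -0.20 for IRF3 and -0.01 for RIGI. DHX58 was at -1.38 between microplastics plus taurine and microplastics.

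**Figure D4:**
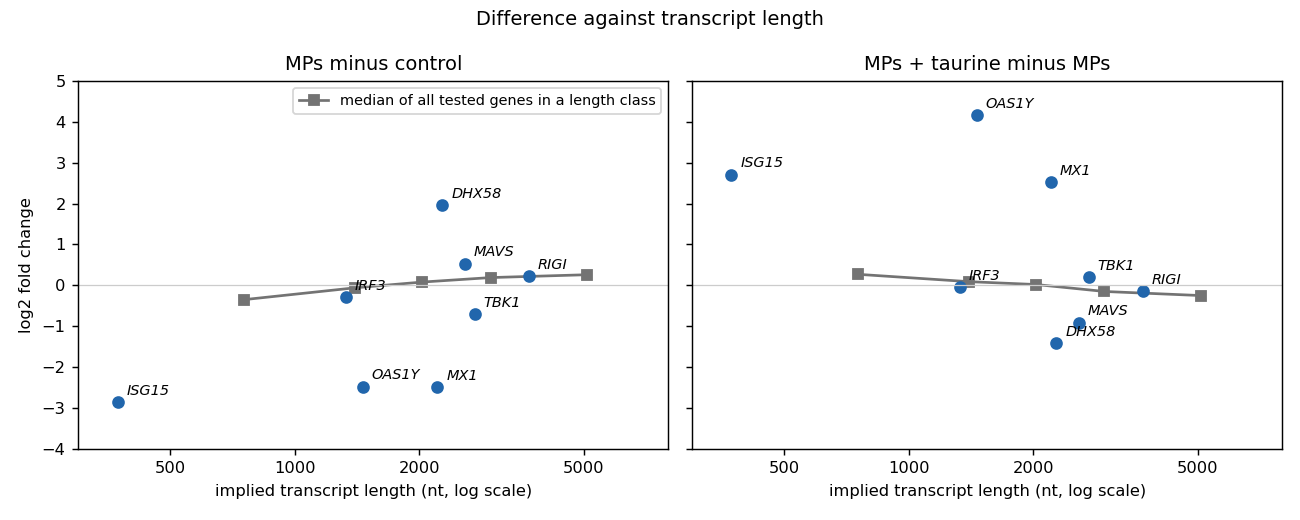
Log2 differences of the members against the transcript length implied by the deposited counts and FPKM, with squares for the median of all tested genes in 5 length classes. The squares run over -0.35 to 0.26 between microplastics and control, while DHX58 at 1.96 and MX1 at -2.49 share a length class.

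The genes whose levels were most like DHX58 over the 9 libraries were USP54, FN3KRP, MAP3K13, VPS16 and HERC4. Their Pearson correlations of log2 CPM with DHX58 were 0.985, 0.983, 0.981, 0.976 and 0.976, given as a description over 9 libraries that form 3 groups. VPS16, a subunit of vacuole and lysosome tethering complexes, had 14.5, 15.8 and 14.5 CPM with microplastics plus taurine, 48.3, 44.9 and 36.0 CPM with microplastics, and 9.10, 8.88 and 14.4 CPM in control. HERC4, a HECT ubiquitin ligase, had 13.5, 14.0 and 13.7 CPM, 16.6, 16.1 and 16.6 CPM, and 13.6, 13.4 and 12.9 CPM in the same order of groups. A similar order of libraries thus came with a log2 difference between microplastics and control of 2.00 ± 0.24 for VPS16 and 0.30 ± 0.19 for HERC4.

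Around the members, 153 further genes of RNA sensing and the interferon response were listed in 7 groups. Of these, 143 were in the table and 115 were tested, and the 28 that failed the filter had at most 17 reads in any library. Between microplastics and control 12 of the 115 rose and 15 fell, or 23.5%, near the 24.3% of all tested genes. Their median log2 difference was 0.09, against 0.04 over all tested genes. With library totals in place of TMM factors, the median over all tested genes was 0.52 in this comparison, and -0.45 between microplastics plus taurine and microplastics, against -0.02 with TMM factors. Directions are therefore relative to the TMM level. With library totals, 37 of the 115 pathway genes rose and 8 fell between microplastics and control, where 37.0% of all tested genes were called, 4004 as higher and 876 as lower. By list, risen against fallen were then 9 and 2 for RNA sensing, 10 and 3 for inhibitors, 4 and 0 for transcription factors, 2 and 2 for interferons and receptors, 3 and 1 for effectors, and 2 and 0 for other sensors.

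Among 23 tested genes of cytosolic RNA sensing, adaptors and kinases, 3 rose and 3 fell with microplastics against control. TANK, which binds TRAF3 and TBK1 and is known as a scaffold of the pathway, had 212, 217 and 207 CPM with microplastics and 638, 658 and 596 CPM in control. It fell by 1.57 on the log2 scale, with SE 0.16 and an adjusted p of 8.29e-05. PRKRA, the dsRNA-binding activator of the kinase PKR, fell by 0.95 (adjusted p = 0.00229). AZI2, another TBK1-binding adaptor, fell by 0.65 (adjusted p = 0.0398). Of the genes that rose, TOMM70, a mitochondrial import receptor that binds MAVS in human cells, had 102, 111 and 133 CPM with microplastics and 63.5, 69.6 and 72.2 CPM in control, with a log2 difference of 0.75 ± 0.17 (adjusted p = 0.00728).

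The ubiquitin ligases TRAF2 and TRAF3 rose by 0.96 (adjusted p = 0.017) and 1.26 (adjusted p = 0.0247) on the log2 scale. The call for TRAF2 was lost without control 1 (0.84), control 2 (0.93) or microplastics 1 (0.86). That for TRAF3 was lost without control 1 (1.05), control 2 (1.17) or each microplastics library in turn (1.37, 1.27 and 1.18). AZI2 lost its call without control 1 (-0.62), control 2 (-0.54), each microplastics library in turn (-0.59, -0.64 and -0.69) or microplastics plus taurine library 2 (-0.66). TRIM25, the ubiquitin ligase best known for RIGI in human cells, had 2.19, 3.12 and 3.30 CPM with microplastics and 1.47, 1.11 and 1.72 CPM in control, at an adjusted p of 0.0518. It passed the threshold without control 3 (1.17) or microplastics plus taurine library 3 (0.99), against 1.00 ± 0.34 with all libraries. IKBKE, the kinase most like TBK1, had 0 to 8 reads a library and was not tested.

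Among 22 tested inhibitors of the pathway, 4 rose and 3 fell with microplastics against control. PCBP2, which brings about the breakdown of MAVS in human cells, had 144, 133 and 117 CPM with microplastics and 274, 271 and 310 CPM in control, and it fell by 1.12 (adjusted p = 0.00125). DUSP1, a MAP kinase phosphatase, fell by 1.11 (adjusted p = 0.00595). RNF125, a ubiquitin ligase that acts on RIGI in human cells, fell by 2.18 (adjusted p = 0.00773) at 0.189 to 0.354 CPM with microplastics and 0.810 to 1.69 CPM in control. PCBP1, the paralogue of PCBP2 with the same reported role, rose by 0.71 (adjusted p = 0.027), so these 2 paralogues differed in direction.

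TRIM27, a ubiquitin ligase, rose by 1.81 (adjusted p = 0.00874) and the phosphatase gene PTPN11 by 0.60 (adjusted p = 0.0184). PCBP1 lost its call without control 1 (0.73), control 2 (0.73), microplastics 1 (0.56) or microplastics 2 (0.72), and PTPN11 without control 1 (0.58) or microplastics 3 (0.53). NLRX1, a mitochondrial protein reported to bind MAVS, had a log2 difference of -0.13 ± 0.54 and was not called.

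Of 15 tested transcription factors, STAT2 was the 1 that passed the test between microplastics and control, and it rose. STAT2, part of the complex that carries interferon signals to the nucleus, had 12.8, 12.9 and 14.1 CPM with microplastics and 4.74, 5.92 and 5.82 CPM in control, a log2 difference of 1.27 ± 0.23 (adjusted p = 0.00252). IRF7, the interferon-inducible relative of IRF3, had a log2 difference of 0.06 ± 0.47 and was not called.

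Of 9 tested interferons, receptors and their kinases, 1 rose and 2 fell with microplastics against control. JAK1, a kinase of interferon receptors, rose by 1.01 (adjusted p = 0.00144). IFNGR1, a chain of the interferon gamma receptor, had 99.8, 203 and 125 CPM with microplastics and 329, 430 and 251 CPM in control, and it fell by 1.24 (adjusted p = 0.00816). IFNL3, a type III interferon, fell by 1.60 (adjusted p = 0.00382) and had 2.19, 2.17 and 2.55 CPM with microplastics and 7.73, 6.66 and 6.63 CPM in control. IFNB1, of a multigene family in cattle, was at 0.40 ± 0.34 and IFNAR1, a chain of the type I interferon receptor, at 0.37 ± 0.36, both uncalled. IFNL3 and IFNB1 counts are uncertain where near copies share reads, and IFNAR2, the other receptor chain, had 0 to 5 reads a library.

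Of 22 tested interferon-stimulated effectors beyond the members, 1 rose, 2 fell and 19 did not pass the test between microplastics and control. B2M, the light chain of MHC class I, fell by 0.98 (adjusted p = 0.00729). ISG20, an RNA exonuclease, fell by 4.05 with SE 1.05 (adjusted p = 0.0168), but it had 5 reads in all 3 microplastics libraries together and 63 in control. Leaving out control 2 (-3.69), microplastics 1 (-3.50) or microplastics 3 (-3.48) ended the call. IFIT2, which is known for restricting translation, rose by 1.82 (adjusted p = 0.00904), with 2.64, 2.46 and 3.90 CPM with microplastics and 0.545, 0.793 and 1.19 CPM in control. EIF2AK2, the dsRNA-activated kinase PKR, was at -0.27 ± 0.70 and was not called.

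The median log2 difference of these effectors was -0.36, against 0.04 over all tested genes, and with library totals in place of TMM factors it was 0.12, against 0.52. ISG15, MX1 and OAS1Y, at -2.85 to -2.48, lay on the low side of that group. Of the marker sums given above, those of the epithelial and erythroid lists were lower in all microplastics libraries than in all control libraries. Those of leukocyte and cumulus markers overlapped between these groups, and the stroma sum was higher with microplastics. The cumulus and granulosa sum was mostly STAR, which overlapped. In that list TNFAIP6, PTGS2, INHA, SERPINE2, GJA1 and VCAN were lower in all microplastics libraries than in all control libraries, as 22.5% of all tested genes were. The other tested markers of the list overlapped. The part of these markers in the effector values was not tested.

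Of 10 tested sensors of other nucleic acids, IFI16, a DNA sensor in human cells, fell by 1.00 (adjusted p = 0.0124) and lost its call without microplastics 3 (-0.95). CGAS, the cytosolic DNA sensor, was at 0.06 ± 0.26, its downstream adaptor STING1 at -0.20 ± 0.31 and the endosomal dsRNA receptor TLR3 at -0.86 ± 0.46, and none of these was called.

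Among 14 tested genes that bind, process or limit the cell's own dsRNA, 2 rose and 4 fell with microplastics against control. That balance turned with the scaling, to 7 risen and 0 fallen with library totals and 9 risen and 0 fallen with limma on TPM. Calls over all tested genes turned too, to 4004 higher and 876 lower (37.0%) with library totals. With limma they were 5340 higher and 696 lower (45.7%). ILF2, part of a dsRNA-binding complex, fell by 0.93 (adjusted p = 0.0181). RNASEH2A, the catalytic subunit of RNase H2, rose by 1.28 (adjusted p = 0.0131). STAU1, which binds dsRNA, fell by 0.68 (adjusted p = 0.0244). PNPT1 and SUPV3L1, which form the mitochondrial RNA degradation complex in human cells, fell by 0.76 (adjusted p = 0.0277) and 0.47 (adjusted p = 0.0425), though SUPV3L1 stood at 0.02 with library totals. ADAR, which edits dsRNA, was at 0.15 ± 0.19, and DICER1, which cleaves it, was at 0.56 ± 0.20 with an adjusted p of 0.0579.

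Several of these calls were lost without single libraries. ILF2 lost its call without control 1 (-0.81) or each microplastics library in turn (-0.94, -0.83 and -0.98), and RNASEH2A without control 1 (1.25) or control 2 (1.06). STAU1 lost it without control 1 (-0.68), control 2 (-0.61), microplastics 2 (-0.59) or microplastics 3 (-0.56). PNPT1 lost it without control 1 (-0.75), control 2 (-0.59) or each microplastics library in turn (-0.71, -0.72 and -0.81). SUPV3L1 lost it without control 1 (-0.44), control 2 (-0.46), each microplastics library in turn (-0.51, -0.44 and -0.40) or microplastics plus taurine library 2 (-0.47). Of all 27 pathway genes called between microplastics and control, 14 kept the call without each library in turn.

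**Figure D5:**
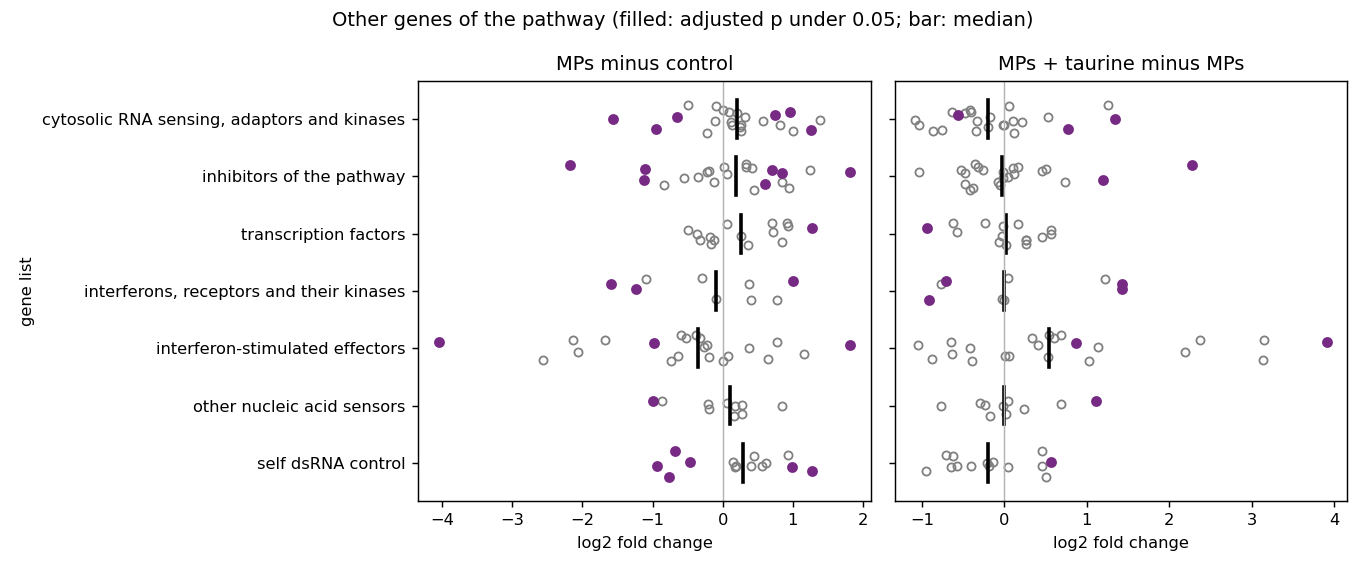
Log2 differences of the other pathway genes by list, for microplastics minus control on the left and microplastics plus taurine minus microplastics on the right. Filled points have an adjusted p under 0.05 and the bar is the median of each list; the effector median is -0.36 on the left and 0.53 on the right.

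Between microplastics plus taurine and microplastics, 10 of the 115 pathway genes rose and 4 fell, or 12.2%, against 14.2% of all tested genes. The comparison shares the microplastics libraries with the one above, so the values stand side by side and are no separate support. With library totals, 6 of the pathway genes rose and 20 fell, where 23.4% of all tested genes were called, 601 as higher and 2488 as lower. By list, risen against fallen were then 1 and 5 for RNA sensing, 2 and 6 for inhibitors, 0 and 1 for transcription factors, 2 and 3 for interferons and receptors, 1 and 2 for effectors, 0 and 0 for other sensors, and 0 and 3 for self dsRNA control. TANK had 549, 436 and 627 CPM with microplastics plus taurine and 212, 217 and 207 CPM with microplastics, and rose by 1.34 (adjusted p = 0.000323). Of the 23 RNA-sensing genes, PRKRA also rose, by 0.77 (adjusted p = 0.0109), and TOMM70 fell by 0.56 (adjusted p = 0.0419). PRKRA lost its call without microplastics 1 (0.67), and TOMM70 lost it without each library in turn except control 3 and microplastics plus taurine library 1, at -0.65 to -0.46.

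Of the 22 inhibitors, PCBP2 and RNF125 rose, by 1.19 (adjusted p = 0.00127) and 2.27 (adjusted p = 0.00919), and none fell. PCBP2 had 244, 368 and 283 CPM with microplastics plus taurine and 144, 133 and 117 CPM with microplastics. RNF125 lost its call without microplastics 1 (2.04). STAT2 was the 1 transcription factor called, and it fell by 0.94 (adjusted p = 0.0173), with 5.94, 8.25 and 6.46 CPM with microplastics plus taurine and 12.8, 12.9 and 14.1 CPM with microplastics. Its call was lost without each microplastics library in turn (-0.99, -0.98 and -0.91) or microplastics plus taurine library 3 (-0.90).

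Of the 9 interferons, receptors and kinases, IFNGR1 and IFNL3 rose, each by 1.42 (adjusted p = 0.00579 and 0.0106), and JAK1 and JAK2 fell by 0.71 (adjusted p = 0.014) and 0.91 (adjusted p = 0.0498). IFNGR1 had 383, 305 and 458 CPM with microplastics plus taurine and 99.8, 203 and 125 CPM with microplastics. IFNL3 lost its call without microplastics 1 (1.36) or microplastics 2 (1.36), and JAK1 without microplastics 3 (-0.60) or microplastics plus taurine library 3 (-0.65). JAK2 lost it without each library in turn except control 3, at -1.09 to -0.72.

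Of the 22 effectors, B2M and ISG20 rose, by 0.87 (adjusted p = 0.0193) and 3.91 (adjusted p = 0.0291), and 20 did not pass the test. ISG20 had 57 reads in the 3 libraries with microplastics plus taurine and 5 in those with microplastics, and leaving out microplastics 1 (3.36), microplastics 3 (3.33) or microplastics plus taurine library 3 (2.73) ended the call. B2M lost its call without microplastics 1 (0.85), microplastics 2 (0.74) or microplastics plus taurine library 2 (0.88). The median of the effectors was 0.53, against -0.02 over all tested genes, and without microplastics plus taurine library 3 it was 0.07. With library totals it was 0.06, against -0.45, and with limma on TPM it was -0.02, against -0.37. The marker levels of library 3 are given above, and their part in these values was not tested.

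The last of the genes called between microplastics plus taurine and microplastics were IFI16, which rose by 1.11 (adjusted p = 0.0109), and SUPV3L1, which rose by 0.56 (adjusted p = 0.0295). IFI16 lost its call without microplastics 3 (1.05), and SUPV3L1 without each microplastics library in turn (0.60, 0.53 and 0.49) or microplastics plus taurine libraries 2 (0.52) or 3 (0.53). Of the 14 calls in this comparison, those of TANK, PCBP2 and IFNGR1 held without each library in turn.

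Between microplastics plus taurine and control, edgeR called 0 of the 115 pathway genes. An unadjusted p under 0.05 was found for 2 of them and for 752 of the 13206 tested genes. DESeq2 also called 0. In this comparison 0.00757% of all tested genes were called, so a count of 0 is close to that background. TANK stood at -0.23, PCBP2 at 0.07, STAT2 at 0.33 and IFNGR1 at 0.19 on the log2 scale, and these differences were not called.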

How the data were processed

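RNA of bovine metaphase II oocytes was sequenced in 9 libraries, extracted with TRIzol and prepared with BGI protocols per the labels' protocols. Aligner, counting program, strand setting and genome build: not given in the sources used here. Per the file headers, the deposited table of 22590 transcript rows holds the authors' estimated counts (20.9 to 24.0% of rows in a library not whole), FPKM, TPM, a scaled count treated as a signal, and the authors' group means. The last 2 were not used here. FPKM deposited by the authors served to compute the transcript length that counts and FPKM imply, and TPM deposited by the authors served to compare levels between genes.

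Estimated counts were summed per gene ID (17852 genes) and rounded. Symbols came from a RefSeq gene table of the ARS-UCD2.0 assembly, matched on gene ID, which named 16995 genes (95.2%). It was used for names and for which genes overlap or neighbour each other, and no coordinates are printed, since the build of the files is not known. Tests used edgeR 4.0.16 (R 4.3.3): TMM scaling, the package's own filter at a minimum count of 10 and a minimum total of 15, robust quasi-likelihood fits of all 9 libraries with a coefficient for each group, and Benjamini-Hochberg adjustment over all tested genes. Called means an adjusted p under 0.05. Levels are TMM-scaled CPM, and correlations used log2 CPM with a prior count of 2. Floors of 3 counts cover counting error only, since no molecular identifiers are described. The fit was also run on counts simulated from the spread that it had estimated, and the outcome is not reported here. Such counts hold no library that stands apart from its group, so nothing about the calls is read from that run.

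Alternatives were DESeq2 size factors, library size only, no filter, 5 CPM in 3 libraries, a fit to the compared groups alone, a block for the replicate number, a removed length trend, control 3 and microplastics plus taurine library 3 left out together, each library left out in turn, the Wald test of DESeq2 1.42.0, and limma 3.58.1 on log2(TPM + 1).

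The members, the 7 pathway lists, the cell type markers and these alternatives were chosen with earlier results of these data known. The rule for names takes all members. From each list it takes up to 3 risen and 3 fallen genes of smallest adjusted p, and it adds 19 pathway genes whatever their values and the 5 genes most like DHX58. IFI6, IFI27, IFITM2 and the marker genes named were chosen after their values were seen. A few genes that this rule names are not reported here.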

Additional observations from a re-analysis of the deposited data

How the results depend on the processing

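DHX58 kept its direction and call under all 19 alternatives. It stood at 1.86 to 2.44 on the log2 scale between microplastics and control, and at -1.85 to -1.38 between microplastics plus taurine and microplastics. Because DHX58 was chosen for its high counts in these same libraries, these values are a description and no support. The member counts that follow are given in the same way. Between microplastics and control, 1 member was called (24.3% of all tested genes), against 2 with 5 CPM in 3 libraries (35.8%), 3 with DESeq2 (29.9%), 4 with limma on TPM (45.7%), 5 with only the compared groups (28.6%) and 5 with control 3 and microplastics plus taurine library 3 left out together (38.1%). Leaving out 1 library gave 1 to 5, with 5 without microplastics plus taurine library 3 (27.7%). Between microplastics plus taurine and microplastics, 1 member was called (14.2% of all tested genes), against 2 with library size only (23.4%), DESeq2 (19.3%) or limma (33.1%), and 1 to 3 with 1 library left out. Pathway calls between microplastics and control were 27 of 115 (23.5%), against 45 (39.1%; 37 higher, 8 lower) with library size only, where 37.0% of all tested genes were called (4004 higher, 876 lower), 52 (45.2%; 48 higher, 4 lower) with limma, where 45.7% were called (5340 higher, 696 lower), and 17 to 36 with 1 library left out. Those between microplastics plus taurine and microplastics were 14, against 26 (6 higher, 20 lower), 41 (6 higher, 35 lower) and 5 to 21 in the same settings. These settings called 23.4%, 33.1% and 6.61 to 15.9% of all tested genes in that comparison, against 14.2%. With 1 library left out, 12.7 to 30.8% of all tested genes were called between microplastics and control. Between microplastics plus taurine and control, 0 members and 0 pathway genes were called, against 1 member (TBK1, -1.14) and 4 pathway genes with control 3 and microplastics plus taurine library 3 left out together, where 5.83% of all tested genes were called. SUPV3L1 between microplastics and control changed sign to 0.02 with library size only and 0.14 with limma. The cause of these changes was not tested.

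With the replicate number as a block, 1, 1 and 0 members and 21, 10 and 0 pathway genes were called in the 3 comparisons, against 27, 14 and 0 pathway genes without it. In the first 2 comparisons the block gave 18.3% and 8.7% of pathway genes called, against 18.3% and 9.79% of all tested genes. Same-numbered libraries showed no common pairing: their deviations from the group means correlated at -0.441 to 0.261. With 3 libraries a group, this cannot exclude that some share an origin. Some genes could not be fitted under a stricter filter: MAVS, IRF3, MX1 and OAS1Y with 5 CPM in 3 libraries, and OAS1Y with only the compared groups of the second comparison. Depth limits IFIH1, MX2, OAS1X, OAS1Z, OAS2 and IKBKE, which failed the filter on low counts and were not called when fitted without it.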
